A study of Rattus norvegicus with 48 samples.

Results

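4-Octyl itaconate (4OI) was added to rat cortical cultures that also received the HIV-1 protein Tat and cocaine, and its effect on the transcriptome was read from the 3 Tat-Cocaine-4OI libraries against the 3 Tat-Cocaine libraries. These 6 of the 48 RNA-seq libraries were taken by their treatment labels. All 15609 genes that reached 0.5 CPM (read counts scaled to a common library total after TMM normalization) in 3 or more of 21 libraries were tested. The cultures were primary mixed cultures of 18-day Sprague-Dawley rat fetuses, kept for 3 weeks (day 21 in vitro). Tat-Cocaine cultures received Tat (6 ng/ml) for 48 h and cocaine (25 µM) during the next 24 h. Tat-Cocaine-4OI cultures received the same, with 250 µM 4OI given together with Tat. Untreated cultures (Control), 4OI alone, Tat, Tat-4OI and Cocaine, each with 3 libraries, served for reference, as did Tat-Cocaine cultures with Amlexanox, Tazemetostat or Senicapoc in place of 4OI (9 libraries). Each culture was a mixture of cell types in a dish without blood flow, which limits it as a model of the brain.

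Itaconate is made from cis-aconitate by the enzyme Acod1, chiefly in activated macrophages and microglia. The octyl ester passes the cell membrane. Both can modify cysteines of Keap1, the protein that marks the transcription factor Nrf2 for degradation, and Nrf2 then drives genes of glutathione synthesis, quinone reduction, NADPH supply and heme and iron handling through antioxidant response elements in their regulatory DNA. Itaconate esters are also known to dampen inflammatory and interferon-driven genes in macrophages.

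The labels name the cells as neurons, and markers of several cell types were present. In the Tat-Cocaine libraries the 18 tested neuron markers summed to between 3319 and 4205 CPM, the 17 astrocyte markers to between 9985 and 11890.1 CPM, the 14 pan-myeloid markers, which microglia and macrophages share, to between 1307 and 2265 CPM, and the 14 oligodendrocyte markers to between 819 and 2663 CPM. Tat-Cocaine-4OI replicate 2 stood apart from its group. Across genes, on the log2 scale, its Pearson correlation was 0.963 with replicate 1 and 0.978 with replicate 3, while replicates 1 and 3 correlated at 0.993. Its neuron markers summed to 2236 CPM against 4486 and 3762 CPM in replicates 1 and 3, its pan-myeloid markers to 1809 CPM against 501 and 667 CPM, and its motile cilium genes to 1276 CPM against 419 and 707 CPM. Tat-Cocaine replicate 3 correlated at 0.977 and 0.982 with the other 2 libraries of its group, which correlated at 0.991. The 6 libraries held 17.6 to 25.0 M reads on genes, so that 1 read was worth 0.0403 to 0.0583 CPM. All 6 were kept. For part of the gene lists, counts and medians are also given as ranges over the 6 fits that left out 1 library. A list given without a range was not always stable. In bulk libraries, fewer cells of a type and less RNA per cell cannot be told apart.

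4OI changed 559 of 15609 genes (3.58%) in Tat-Cocaine cultures at a limma adjusted p under 0.05, 354 higher (2.27%) and 205 lower (1.31%). The median log2 fold change over all genes tested was -0.01. Among called genes the rises were more in number and the falls larger in size. A gene with a wider spread is called only at a larger change, so these sizes are not free of the threshold. The median log2 fold change of the called genes was 0.72 for the rises and -1.24 for the falls, and 98 rises and 125 falls reached 1 on the log2 scale. In 1872 genes (12.0%) all 3 libraries with 4OI were above all 3 without it, and in 1363 (8.73%) all 3 were below. Of the 559 called genes 188 were called in each of the 6 fits that left out 1 library, 130 higher and 58 lower. Leaving out Tat-Cocaine replicate 1 gave 318 genes, leaving out its replicate 2 gave 288, and leaving out Tat-Cocaine-4OI replicate 3 gave 227. Differences are given as log2 fold change of CPM + 0.5 with the standard error (SE), and levels as CPM.

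**Figure D1:**
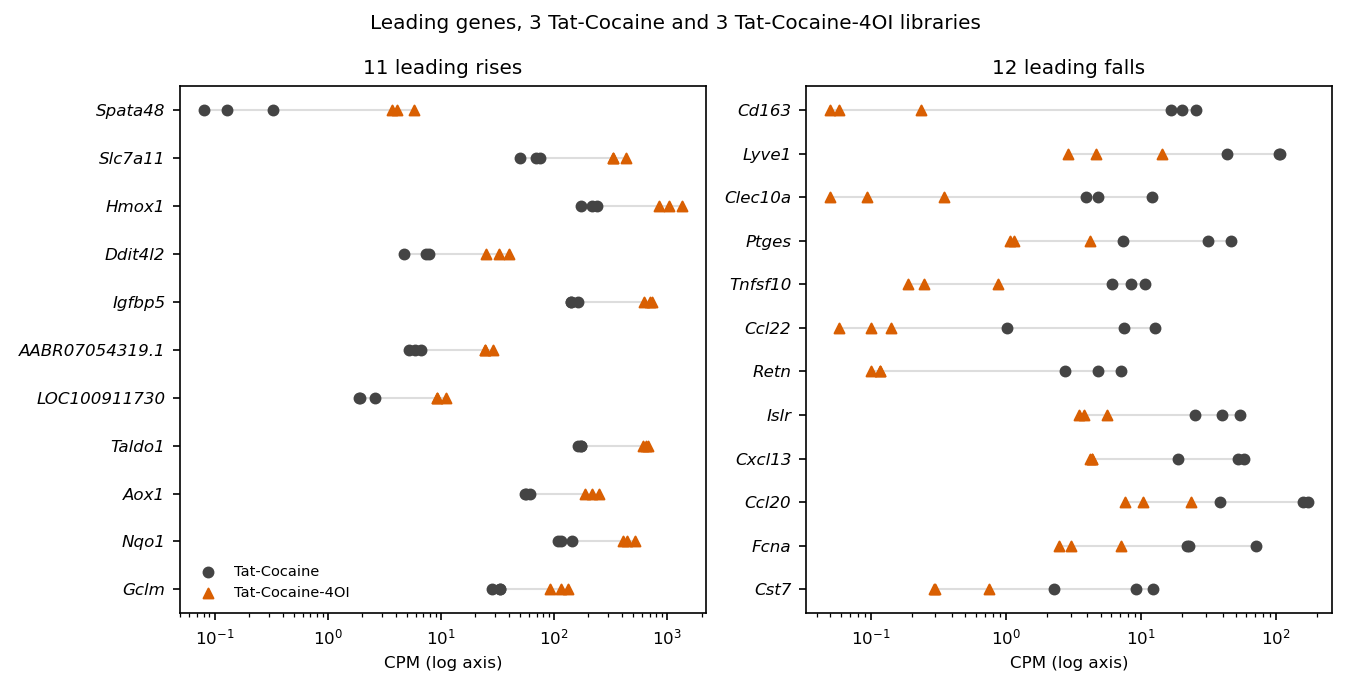
CPM on a log axis of 11 of the 12 largest rises and of the 12 largest falls among genes called in each of the 6 fits that left out 1 library; each point is 1 library (circles, Tat-Cocaine; triangles, Tat-Cocaine-4OI). The 3 circles and the 3 triangles of a gene do not overlap, since genes were taken only where they did not.

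The leading rises were led by genes of cystine uptake, heme breakdown and reductive metabolism. Slc7a11, the cystine carrier of the glutamate exchanger xCT, stood at 49.4, 68.6 and 75.0 CPM in Tat-Cocaine and at 429, 331 and 332 CPM in Tat-Cocaine-4OI cultures. The groups were far apart, with a log2 fold change of 2.50 (SE 0.376, limma adjusted p = 0.000953). Hmox1, the heme oxygenase that opens the heme ring, stood at 172, 214 and 237 CPM and at 1348, 845 and 1034 CPM with 4OI. Its lowest library with 4OI was above its highest without, as the choice of leading genes required. The log2 fold change was 2.36 (SE 0.288, adjusted p = 0.000158). Taldo1, the transaldolase of the pentose phosphate pathway, was the tightest of the leading rises, with 161, 171 and 171 CPM against 671, 643 and 603 CPM with 4OI. Its log2 fold change was 1.93 (SE 0.129, adjusted p = 7.25e-07). Nqo1, the quinone reductase, went from 109, 143 and 114 CPM to 439, 512 and 402 CPM (log2 fold change 1.88, SE 0.158, adjusted p = 4.14e-06).

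Other leading rises lay outside these pathways. Igfbp5, a secreted binding protein of insulin-like growth factors, stood at 162, 142 and 141 CPM and with 4OI at 733, 623 and 700.2 CPM (log2 fold change 2.20, SE 0.208, adjusted p = 1.58e-05). Control cultures held 383 ± 27.1 CPM of Igfbp5 (SD, n = 3), between both groups. Aox1, an aldehyde oxidase, rose by 1.89 (SE 0.155) and Ddit4l2, a relative of the mTOR inhibitor Ddit4, by 2.21 (SE 0.263) on the log2 scale. Spata48 had the largest log2 fold change of all rises named, 2.88 (SE 0.332), from few reads. It held 3, 8 and 2 reads in the Tat-Cocaine libraries, and 5.76, 3.67 and 4.06 CPM with 4OI, and its log2 fold change lay between 2.21 and 4.12 over the alternatives. The uncharacterised AABR07054319.1 (2.04) and LOC100911730 (1.98) and Gclm, described with its pathway, were also among the leading rises.

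Genes of glutathione synthesis and use were called higher in 5 of 12 tested members and lower in 0, with a median log2 fold change of 0.46. The 5 were Slc7a11, both subunits of glutamate-cysteine ligase (Gclc and Gclm), glutathione synthetase (Gss) and glutathione reductase (Gsr). Cystine uptake, glutathione synthesis and the recycling of oxidized glutathione were thus among them. The glutathione peroxidases Gpx1 (log2 fold change 0.18, limma adjusted p = 0.777) and Gpx4 (0.05, adjusted p = 0.796) were not called. Gclm, the modifier subunit, stood at 33.04, 33.03 and 28.1 CPM against 133, 92.1 and 115 CPM with 4OI (log2 fold change 1.82, SE 0.227, adjusted p = 0.000193). The catalytic subunit Gclc changed less, from 98.4 ± 6.36 to 163 ± 4.55 CPM (log2 fold change 0.73, SE 0.111), and its level with 4OI lay below the 185 ± 31.5 CPM of Control cultures (SD, n = 3). Gsr went from 54.9 ± 0.562 to 106 ± 12.98 CPM and Gss from 33.97 ± 3.94 to 65.4 ± 5.30 CPM (SD, n = 3), with log2 fold changes of 0.93 and 0.94.

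The list with the most calls was that of quinone, thioredoxin and NADPH genes, with 12 of 17 tested members higher, 0 lower, and 17 of 17 log2 fold changes above 0 (median 0.82). Besides Nqo1 and Taldo1 these included the NADPH-forming enzymes Me1 and Idh1, the transketolase Tkt, thioredoxin reductase Txnrd1, peroxiredoxin Prdx1, the reductases Cbr3 and Akr1b8, the glucuronosyltransferase Ugt1a6 and the oxidative stress-induced growth inhibitor Osgin1. Osgin1 stood at 9.07, 7.74 and 4.95 CPM against 22.4, 31.5 and 23.2 CPM with 4OI (log2 fold change 1.78, SE 0.234, adjusted p = 0.000292). Cbr3, a carbonyl reductase, went from 4.94 ± 1.405 to 15.5 ± 1.48 CPM (log2 fold change 1.59, SE 0.225). Tkt went from 318 ± 18.5 to 565 ± 71.6 CPM (SD, n = 3), a log2 fold change of 0.82 (SE 0.126). The summed level of the list lay between 2226 and 2383 CPM without 4OI and between 4203 and 4828 CPM with it. Between 8 and 12 of the 17 were called higher when any 1 of the 6 libraries was left out.

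Heme and iron genes were called higher in 5 of 11 tested members and lower in 0 (median log2 fold change 0.43). Fth1, the heavy chain of the iron store ferritin, was the most abundant, at 3564, 4268 and 3724 CPM without and 9529, 11299 and 8769 CPM with 4OI (log2 fold change 1.35, SE 0.20, adjusted p = 0.000866). With Hmox1 it carried most of the summed level of the list, which lay between 4346 and 5100.1 CPM without and between 10505 and 12903 CPM with 4OI. The biliverdin reductase Blvrb rose from 53.0 ± 4.40 to 85.6 ± 4.04 CPM and the heme transporter Slc48a1 from 140.3 ± 4.56 to 232 ± 18.0 CPM (SD, n = 3). Fech, which inserts iron into protoporphyrin to form heme, was the fifth. The transcripts of the pathway's regulators moved little, with 1 of 9 called. It was Sqstm1, the autophagy adaptor that binds Keap1, with 619.8 ± 32.8 CPM against 1049.8 ± 122 CPM (log2 fold change 0.75, SE 0.0972, adjusted p = 0.000252). Nfe2l2, which encodes Nrf2, stood at 160.0 ± 19.3 and 152 ± 20.003 CPM (log2 fold change -0.08, SE 0.123, adjusted p = 0.803), and Keap1 at 79.1 ± 6.17 and 97.0 ± 8.66 CPM (0.29, SE 0.1004, adjusted p = 0.122).

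Of 20 glutathione S-transferases tested, which attach glutathione to electrophiles, 4 were called higher and 1 lower (median log2 fold change 0.19). Gsta1 stood at 299.7, 282 and 171 CPM against 825, 691 and 713 CPM with 4OI (log2 fold change 1.60, SE 0.222, adjusted p = 0.000537). Gstm1 rose from 265 ± 38.8 to 449 ± 21.3 CPM (SD, n = 3), a log2 fold change of 0.77. Gstp1, a gene the study named, stood at 359, 402 and 194 CPM against 1006, 1178 and 828 CPM (log2 fold change 1.71, SE 0.368, adjusted p = 0.0151) and was not called without Tat-Cocaine replicate 3. Gstt3 was the fourth. Gstz1, which acts in tyrosine breakdown, fell by 0.65 on the log2 scale (SE 0.129, adjusted p = 0.00861), from 47.7 ± 9.34 to 29.9 ± 1.47 CPM, close to its level in Control cultures (27.5 ± 1.62 CPM; SD, n = 3). Members of this family, and ferritin genes, have close copies in the genome between which reads can be split, so that a single member's level is less certain than the others given here. Among 15 superoxide dismutases, catalase and peroxidases 3 were called higher and 0 lower (median 0.15). Catalase (Cat) stood at 119, 132 and 110.4 CPM against 261, 240.0 and 225 CPM (log2 fold change 1.01, SE 0.103, adjusted p = 2.64e-05), and the cytosolic dismutase Sod1 went from 176 ± 6.22 to 244 ± 7.50 CPM (0.47, SE 0.0943). The mitochondrial dismutase Sod2, which NF-κB drives, stood at 3065 ± 1212 and 2458 ± 955 CPM (log2 fold change -0.30, SE 0.394, adjusted p = 0.748). Of 3 metallothioneins, which bind zinc and copper, Mt1 was called lower, from 194 ± 39.8 to 77.2 ± 1.49 CPM (log2 fold change -1.31, SE 0.298, adjusted p = 0.0219), a call that needed Tat-Cocaine replicate 2 and replicates 1 and 3 of Tat-Cocaine-4OI.

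The DNA before the start sites of these genes was read for the core of the antioxidant response element, to set the genes that moved together beside their sequence. The core TGACNNNGC was searched on both strands in RefSeq windows of the rat build GRCr8, 250 bases before to 50 after each start. It was found in 12.2% of all 27457 windows and in 14.6% of the 11104 windows matched to tested genes. The share was 16.8% of 256 windows for genes called higher, 8.51% of 141 for genes called lower, and 30.3% of 66 for the tested members of the 6 antioxidant lists above, metallothioneins not included. Of the 24 windows of members called higher in these lists 29.2% held it. Of the 18 genes named from these lists for a call in every fit, 14 had a window and 3 of them held the core, Gclm, Gsta1 and Gstz1. They are shown 5′ to 3′ with the match in capitals, as the 250 bases before the start for Gclm and Gstz1 and as 30 bases around the match, past the start, for Gsta1.
Gclm, chr2:213031885-213032134, plus strand: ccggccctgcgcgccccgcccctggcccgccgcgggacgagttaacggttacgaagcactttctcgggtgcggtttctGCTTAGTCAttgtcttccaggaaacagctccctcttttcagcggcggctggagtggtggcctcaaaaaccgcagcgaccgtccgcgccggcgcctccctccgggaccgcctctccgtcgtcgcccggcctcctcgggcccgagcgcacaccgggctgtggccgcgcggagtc
Gsta1, chr9:31216484-31216513, minus strand: caactcaggcaTGACTTTGCatttttcttc
Gstz1, chr6:112525356-112525605, plus strand: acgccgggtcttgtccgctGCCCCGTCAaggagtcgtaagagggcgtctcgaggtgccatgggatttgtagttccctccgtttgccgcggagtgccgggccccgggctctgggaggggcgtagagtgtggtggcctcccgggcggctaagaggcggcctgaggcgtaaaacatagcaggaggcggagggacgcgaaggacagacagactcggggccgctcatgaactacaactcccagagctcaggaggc
The Gclm match lies 172 to 164 bases before the start and reads on the reverse strand, as does that of Gstz1, 231 to 223 bases before the start. The Gsta1 match covers bases 31 to 39 past the start on the forward strand. Of these 3 genes Gclm and Gsta1 rose and Gstz1 fell. A match is a run of letters and not a measured binding site, and the other windows hold no match only within these 300 bases.

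**Figure D2:**
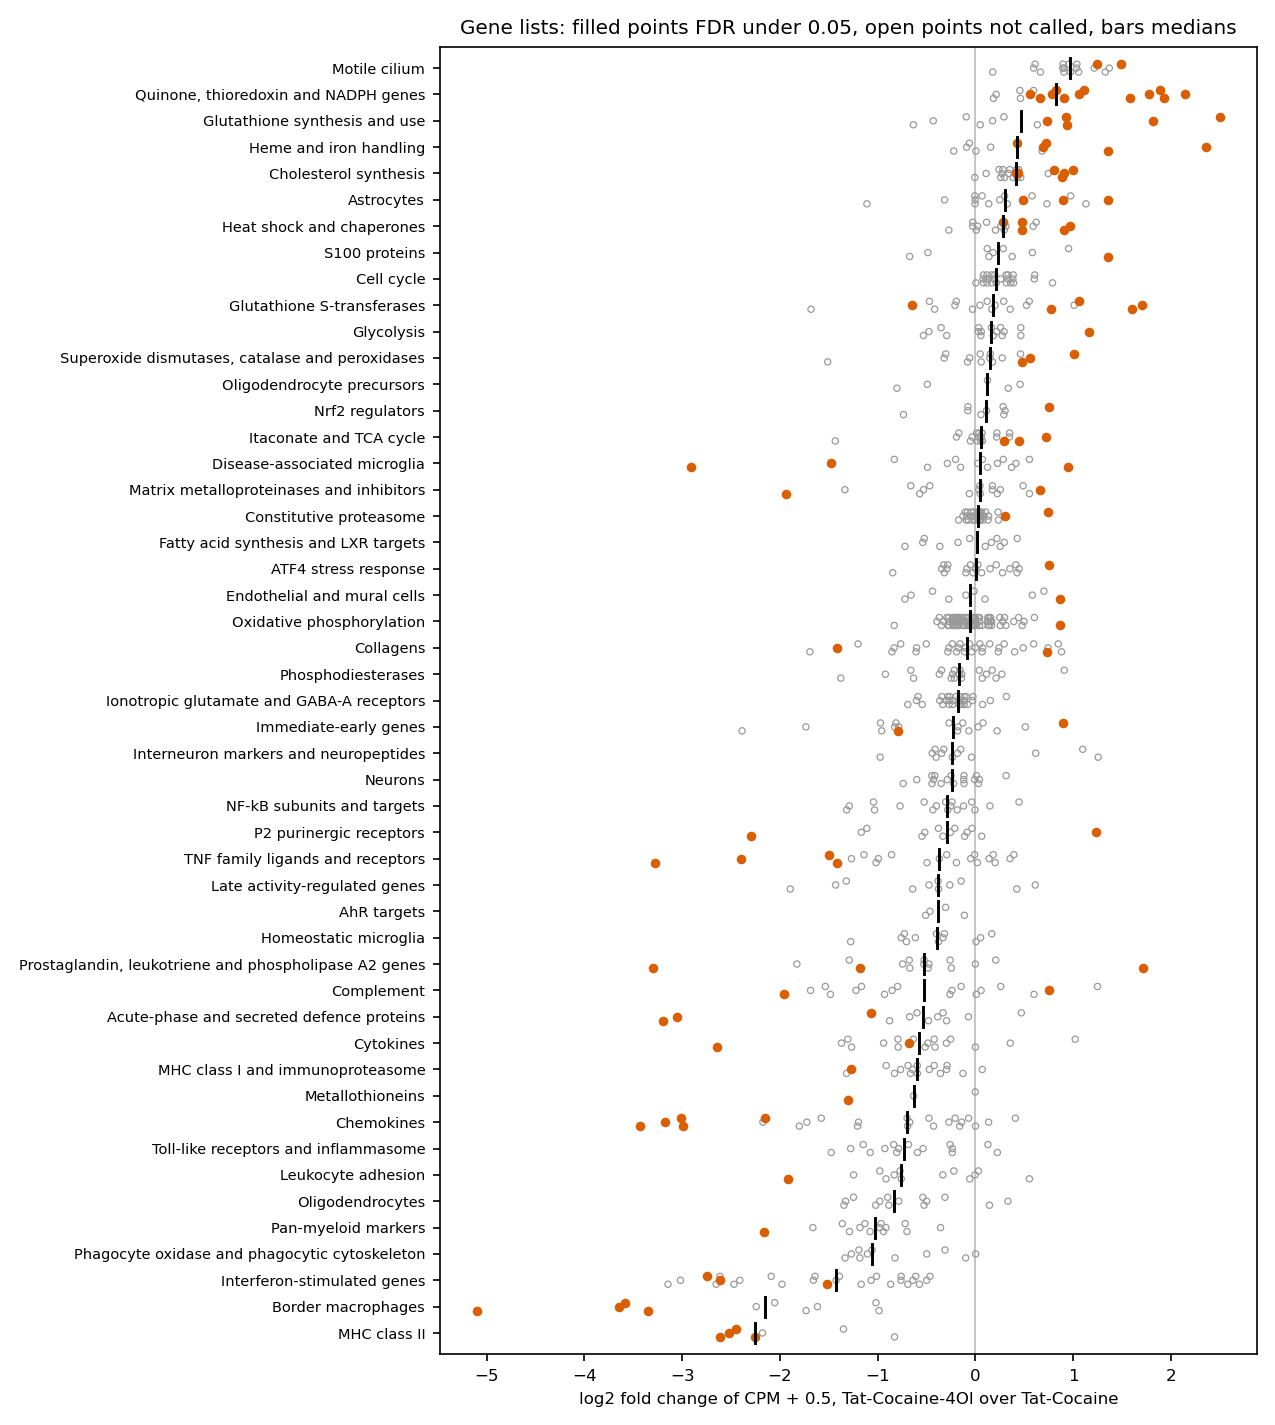
Log2 fold change of CPM + 0.5 (Tat-Cocaine-4OI over Tat-Cocaine) of every tested member of 49 gene lists, sorted by list median (bars); filled points are genes with a limma adjusted p under 0.05. The medians of the motile cilium (0.97), quinone (0.82), glutathione (0.46) and heme and iron (0.43) genes lie farthest to the right, and those of MHC class II (-2.26), border macrophage (-2.15) and interferon-stimulated genes (-1.42) farthest to the left.

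The lowest list medians were those of MHC class II and border macrophage genes, while single genes of other lists fell more than the called MHC class II genes. Of 7 MHC class II genes tested, which present peptides to helper T cells, 4 were called lower and 0 higher, and the median log2 fold change was -2.26. RT1-Da stood at 14.9, 22.6 and 15.1 CPM without and at 1.64, 4.66 and 1.69 CPM with 4OI (log2 fold change -2.62, SE 0.330, adjusted p = 0.000212). RT1-Db1 stood at 11.3, 20.2 and 16.2 CPM against 1.47, 4.93 and 1.51 CPM (log2 fold change -2.52, SE 0.358, adjusted p = 0.000670). In both genes the highest library with 4OI was replicate 2, and it was still under the lowest without 4OI. RT1-Ba (-2.45, SE 0.411) and RT1-Bb (-2.26, SE 0.360) were the others called, and the invariant chain Cd74 stood at 127 ± 49.8 and 33.9 ± 29.4 CPM (-2.18, SE 0.667, adjusted p = 0.0817). In Control cultures RT1-Da was at 0.299 ± 0.123 CPM (SD, n = 3). Without Tat-Cocaine-4OI replicate 2, 5 of the 7 were called.

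Of 10 markers of border macrophages, the macrophages of meninges and vessel walls, 4 were called lower and 0 higher (median log2 fold change -2.15, between -2.66 and -1.52 with 1 library left out). The count was 6 without Tat-Cocaine-4OI replicate 2 and 3 or 4 without any 1 of the others. Cd163, the scavenger receptor for haptoglobin-bound hemoglobin, had the largest fall named, from 16.6, 19.9 and 25.5 CPM to 0.234, 0.0583 and 0.0496 CPM, which is 5, 1 and 1 reads. The log2 fold change was -5.10 (SE 0.575, adjusted p = 7.58e-05) and ran from -6.68 to -4.26 over the alternatives, since so few reads make it depend on the pseudocount. It was not called with voom weights. Lyve1, a hyaluronan receptor, stood at 107, 42.98 and 106 CPM against 2.85, 14.2 and 4.63 CPM (log2 fold change -3.64, SE 0.541, adjusted p = 0.000866). The lectin receptor Clec10a fell by 3.35 on the log2 scale (SE 0.498), from 6.92 ± 4.45 to 0.164 ± 0.162 CPM. F13a1, a coagulation factor chain made by such macrophages, was called (-3.59, SE 0.948, adjusted p = 0.0463) but lost its call without any 1 of the 6 libraries. Fcna, a secreted ficolin of macrophages outside this list, was at 70.4, 22.6 and 21.7 CPM against 3.04, 7.11 and 2.48 CPM (log2 fold change -2.94, SE 0.518, adjusted p = 0.00343). Control cultures held 63.0, 40.4 and 40.8 CPM of Cd163, 148, 151 and 168 CPM of Lyve1 and 121, 88.8 and 78.5 CPM of Fcna. These levels were above those of both groups, so that the falls with 4OI led away from Control. Clec10a, at 1.23, 0.981 and 0.726 CPM in Control cultures, lay between both groups.

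Markers shared by all myeloid cells fell less clearly. All 14 pan-myeloid log2 fold changes were below 0 (median -1.03), and 1 of 14 was called, the inhibitory Fc receptor Fcgr2b (-2.17, SE 0.537, adjusted p = 0.0338), which kept its call only when Tat-Cocaine-4OI replicate 2 was the library left out. The summed level lay between 1307 and 2265 CPM without and between 501 and 1809 CPM with 4OI, so that the groups overlapped through Tat-Cocaine-4OI replicate 2. Without that library 2 of 14 were called and the median was -1.58. Without Tat-Cocaine-4OI replicate 1 limma called 0 and the median was -0.69. The growth factor receptor Csf1r stood at 363, 203 and 386 CPM against 65.2, 284 and 104 CPM (log2 fold change -1.29, SE 0.491, adjusted p = 0.169). Of 12 genes of homeostatic microglia 0 were called by limma (1 with an unadjusted p under 0.05), with a median of -0.39, and the median ran from -0.87 (Tat-Cocaine-4OI replicate 2 left out) to -0.07 (its replicate 1 left out). Their summed level was between 308 and 469.7 CPM without and between 285 and 446 CPM with 4OI. The groups overlapped in Sall1, a microglial transcription factor, with 47.4, 45.97 and 65.7 CPM against 52.5, 51.6 and 59.2 CPM. The falls of MHC class II and border macrophage genes thus stood beside a lower pan-myeloid sum in 2 of the 3 libraries with 4OI, and the part of myeloid cell number in them was not tested.

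Genes of disease-associated microglia were called in both directions, 1 higher and 2 lower of 16 (median 0.05). The shares over all genes tested were 2.27% higher and 1.31% lower. The cystatin Cst7 stood at 12.1, 9.13 and 2.25 CPM against 0.749, 0.292 and 0.297 CPM (log2 fold change -2.91, SE 0.468, adjusted p = 0.00166), and the fungal sugar receptor Clec7a at 24.7, 12.9 and 19.5 CPM against 5.48, 7.05 and 6.39 CPM (-1.48, SE 0.228). Lgals3, which encodes galectin-3, was the rise, with 117, 102 and 158 CPM against 194, 263 and 269 CPM (log2 fold change 0.95, SE 0.217, adjusted p = 0.0219). The call of Lgals3 needed replicates 1 and 2 of Tat-Cocaine and replicates 2 and 3 of Tat-Cocaine-4OI. Limma called 0 of 11 genes of the phagocyte oxidase and cytoskeleton, with 4 at an unadjusted p under 0.05 (median -1.06, between -1.56 and -0.62 with 1 library left out), and 1 without Tat-Cocaine-4OI replicate 2.

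**Figure D3:**
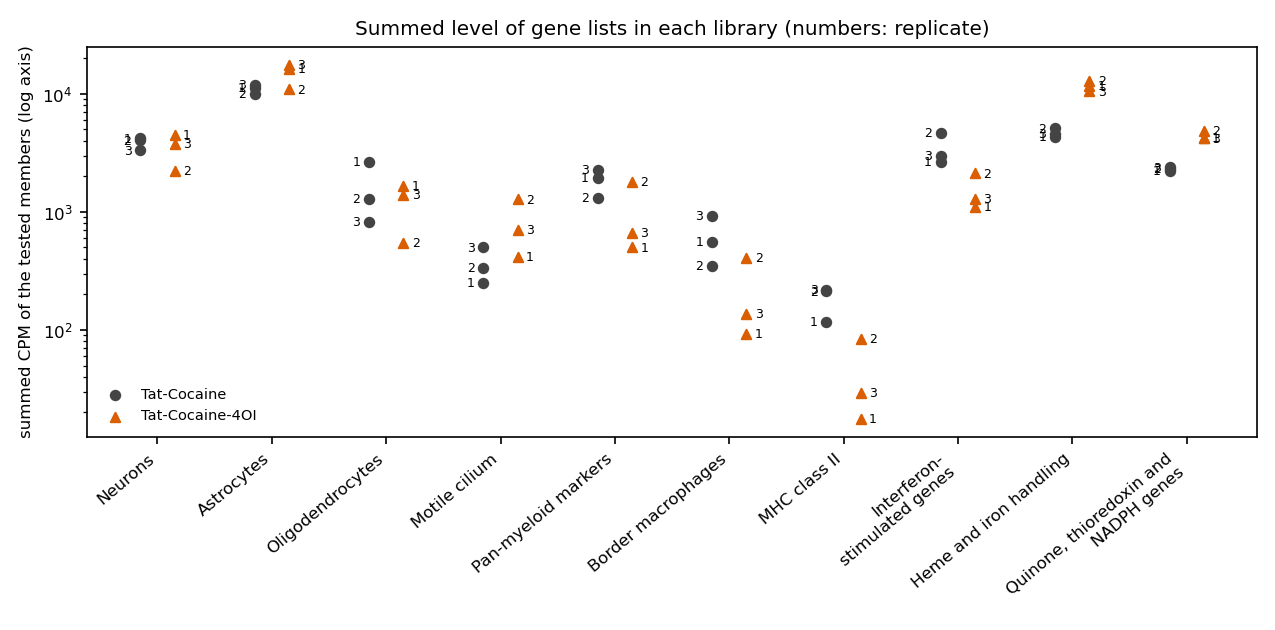
Summed CPM (log axis) of the tested members of 10 gene lists in each Tat-Cocaine (circles) and Tat-Cocaine-4OI (triangles) library, with the replicate number beside each point. The heme and iron and the quinone lists separate the groups, with sums of at most 5100.1 and 2383 CPM without 4OI and at least 10505 and 4203 CPM with it; Tat-Cocaine-4OI replicate 2 is the lowest of the 6 in neuron and oligodendrocyte markers and the highest in cilium genes.

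Secreted inflammatory signals were called lower in part, beside a share of 1.31% called lower over all genes tested. Of 24 chemokines tested, the proteins that draw leukocytes, 5 were called lower and 0 higher (median log2 fold change -0.70). Ccl20 stood at 38.6, 172 and 156 CPM against 7.54, 23.4 and 10.4 CPM with 4OI (log2 fold change -2.996, SE 0.556, adjusted p = 0.00537). Cxcl13, which draws B cells, stood at 51.6, 18.8 and 57.4 CPM against 4.35, 4.31 and 4.21 CPM (-3.02, SE 0.528, adjusted p = 0.00328). Neither overlapped, since leading falls were taken only where the groups did not. Both had means under 1 CPM in Control cultures (0.613 ± 0.582 and 0.619 ± 0.461 CPM; SD, n = 3). Ccl22 went from 1.02, 12.6 and 7.45 CPM to 3, 1 and 2 reads (-3.18, SE 0.494, adjusted p = 0.00123), and Ccl5 and Ccl19 were the others called. The more abundant Ccl2, which draws monocytes, stood at 319, 974 and 737 CPM against 218, 448 and 194 CPM (log2 fold change -1.20, SE 0.649, adjusted p = 0.357), with groups that overlapped. With 1 library left out the chemokine median ran from -1.43 (Tat-Cocaine replicate 1 left out) to -0.40 (Tat-Cocaine-4OI replicate 1 left out). The count fell to 3 when Tat-Cocaine replicate 2 or Tat-Cocaine-4OI replicate 3 was the library left out.

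Of 18 cytokines 2 were called lower and 0 higher (median log2 fold change -0.57), and 1 without Tat-Cocaine replicate 2, Tat-Cocaine-4OI replicate 1 or Tat-Cocaine-4OI replicate 3. They were Ebi3, the shared beta chain of interleukins 27 and 35, and Il12a, the interleukin chain that pairs with it. Ebi3 stood at 69.1, 56.0 and 82.7 CPM against 9.97, 14.8 and 7.98 CPM (log2 fold change -2.64, SE 0.358, adjusted p = 0.000429), below the 30.2 ± 8.001 CPM of Control cultures (SD, n = 3). The other 16 were not called. Il1b stood at 20.3, 40.7 and 82.3 CPM against 7.72, 37.1 and 14.8 CPM (-1.30, SE 0.628, adjusted p = 0.291). Il6 was at 0.511, 2.05 and 3.06 CPM against 1.73, 7.46 and 3.82 CPM (1.02, SE 0.610, adjusted p = 0.415), the opposite direction. In the TNF family 4 of 21 were called lower and 0 higher (median -0.37, between -0.69 and -0.26 with 1 library left out). The count was 5 without Tat-Cocaine-4OI replicate 2 and 2 without any 1 of the other 5 libraries. Tnfsf10, the death ligand TRAIL, stood at 6.05, 10.7 and 8.33 CPM against 0.187, 0.875 and 0.248 CPM (log2 fold change -3.28, SE 0.318, adjusted p = 1.88e-05), and Tnfrsf8 (CD30) went from 1.54 ± 0.691 to 0.253 ± 0.192 CPM (-1.42, SE 0.251). The receptors Tnfrsf14 and Tnfrsf1b were the others.

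Of 27 interferon-stimulated genes tested 3 were called lower and 0 higher. All 27 had log2 fold changes below 0 (median -1.42), and in 22 all 3 libraries with 4OI were below all 3 without, while the other 5 overlapped. Over all genes tested, 8.73% had all 3 libraries with 4OI below all 3 without, and 1.31% were called lower. Isg15, Usp18 and Ifi47 were the genes called, with adjusted p-values of 0.0498, 0.0478 and 0.0459. Limma called 0 of the 27 without any 1 of 5 of the 6 libraries, and 2 without Tat-Cocaine-4OI replicate 2. Isg15, a ubiquitin-like modifier, stood at 65.5, 89.3 and 37.3 CPM against 7.72, 13.002 and 8.33 CPM (log2 fold change -2.61, SE 0.703). Control cultures held 51.8 ± 63.5 CPM of Isg15 (SD, n = 3), a spread wider than the mean, which enters the SE through the shared estimate. Mx1, an antiviral GTPase, stood at 204, 333 and 113 CPM against 16.8, 31.3 and 19.8 CPM (-3.14, SE 0.951, adjusted p = 0.0781). Irf7, the factor that amplifies interferon production, stood at 263, 368 and 345 CPM against 75.7, 81.1 and 69.6 CPM (-2.09, SE 0.708, adjusted p = 0.117). Of 17 MHC class I and immunoproteasome genes 1 was called lower, RT1-N3, and 16 had log2 fold changes below 0 (median -0.59).

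Eicosanoid genes were called in both directions, 1 higher and 2 lower of 16 (median log2 fold change -0.53, between -0.73 and -0.25 with 1 library left out). For these and the following lists, the shares over all genes tested were 2.27% called higher and 1.31% called lower. Pla2g7, the phospholipase that breaks down platelet-activating factor, rose from 69.1, 55.8 and 56.2 CPM to 237, 162 and 203 CPM (1.72, SE 0.170, adjusted p = 1.93e-05). Ptges, the inducible prostaglandin E synthase, stood at 7.37, 46.3 and 31.2 CPM against 1.08, 4.198 and 1.14 CPM (-3.30, SE 0.566, adjusted p = 0.00275). Hpgd, which inactivates prostaglandins, fell by 1.18 (SE 0.197). Among 12 acute-phase and defence proteins 3 were called lower, the protease inhibitor Slpi, the antimicrobial Camp and resistin (Retn), and 0 higher (median -0.54, between -0.99 and -0.17 with 1 library left out). Only 1 was called when Tat-Cocaine replicate 2 or Tat-Cocaine-4OI replicate 3 was left out. Of 18 complement genes 1 was called higher, the complement inhibitor Cd59, and 1 lower, Cfd (median -0.53). With 1 library left out the complement median ran from -1.06 (Tat-Cocaine-4OI replicate 2, with 4 called lower) to -0.06 (its replicate 1), and limma called 0 in either direction when its replicate 3 was left out. Limma called 0 of 18 NF-κB subunits and targets (median -0.29, between -0.59 and -0.12 with 1 library left out; 5 with an unadjusted p under 0.05). It called 0 of 16 Toll-like receptor and inflammasome genes (median -0.73, between -1.15 and -0.44; 6 unadjusted), and 2 of them without Tat-Cocaine-4OI replicate 2. P2rx1, an ATP-gated channel of myeloid cells and platelets, stood at 7.07, 4.79 and 5.64 CPM against 0.796, 0.962 and 0.595 CPM (log2 fold change -2.30, SE 0.281, adjusted p = 0.000158), P2rx6 was called higher, and the other 12 of the 14 P2 receptors were not called. Of 13 leukocyte adhesion genes 1 was called lower and 0 higher (median -0.76, between -1.03 and -0.41 with 1 library left out). Islr, a secreted leucine-rich protein of mesenchymal cells, stood at 39.7, 25.0 and 54.1 CPM against 3.74, 3.44 and 5.55 CPM (-3.04, SE 0.330, adjusted p = 5.36e-05).

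Neuronal transcripts showed no called change. Limma called 0 of 18 neuron markers (median log2 fold change -0.24, 0 with an unadjusted p under 0.05), 0 of 30 ionotropic glutamate and GABA-A receptor genes (-0.18, 1 unadjusted), 0 of 13 interneuron markers and neuropeptides (-0.23, 1 unadjusted) and 0 of 11 late activity-regulated genes (-0.38, 3 unadjusted). These medians rested on Tat-Cocaine-4OI replicate 2. Without it the neuron median was 0.03, that of the receptors 0.13, that of the interneuron genes 0.16 and that of the late genes -0.06, again with 0 calls by limma. Map2, a microtubule protein of dendrites, stood at 449, 478 and 422 CPM against 584, 325 and 521 CPM (0.04, SE 0.256, adjusted p = 0.956). The low value is that of replicate 2. Of 18 immediate-early genes Fosl1 was called higher and Btg2 lower. Btg2 stood at 60.5, 78.5 and 59.1 CPM against 36.4, 40.1 and 36.1 CPM (-0.80, SE 0.155, adjusted p = 0.00749).

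Of 17 astrocyte markers 3 were called higher and 0 lower (median log2 fold change 0.30), and their calls depended on single libraries. Limma called 0 when Tat-Cocaine replicate 2 or Tat-Cocaine-4OI replicate 3 was left out and 4 when Tat-Cocaine-4OI replicate 2 was. Gfap, the intermediate filament of reactive astrocytes, stood at 3031, 2751 and 3661 CPM against 6595, 3920.4 and 7582 CPM (0.89, SE 0.239, adjusted p = 0.0487) and kept its call without Tat-Cocaine-4OI replicate 2 but not without any 1 of the other 5 libraries. S100b stood at 259.8, 238 and 508 CPM against 666, 849.6 and 932 CPM (1.36, SE 0.294, adjusted p = 0.0160), below Control cultures (1594 ± 686 CPM; SD, n = 3). Sox9 was the third. All 18 motile cilium genes, which mark ependymal cells, had log2 fold changes above 0 (median 0.97), and Ak7 and Tmem212 were called. These moved with Tat-Cocaine-4OI replicate 2, the highest library, and without it limma called 0 and the median was 0.59. Limma also called 0 without Tat-Cocaine replicate 1, Tat-Cocaine replicate 2 or Tat-Cocaine-4OI replicate 3, and 7 without Tat-Cocaine-4OI replicate 1. Limma called 0 of 14 oligodendrocyte markers (median -0.83, 1 with an unadjusted p under 0.05; -1.35 to -0.12 with 1 library left out), whose spread between cultures was wide. Their summed level was 2663, 1284 and 819 CPM against 1674, 548 and 1403 CPM, with groups that overlapped. Of 5 genes of their precursors limma called 0 (median 0.12, 1 unadjusted) and, of 10 endothelial and mural genes, 1 higher, Tagln (median -0.06).

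Some metabolic and stress genes rose along with the antioxidant lists. Over all genes tested 3.58% were called and 2.27% were called higher. Lists with only 1 or 2 calls, here and in the paragraphs above, are therefore not read as having moved. Of 21 cholesterol synthesis genes 6 were called higher and 0 lower, and 20 had log2 fold changes above 0 (median 0.41). Cyp51, the lanosterol demethylase, stood at 118, 135 and 133 CPM against 273, 204 and 252 CPM (0.91, SE 0.171, adjusted p = 0.00628). The count was 1 without Tat-Cocaine-4OI replicate 3, 2 when its replicate 1 or Tat-Cocaine replicate 2 was dropped, and 3 when Tat-Cocaine replicate 1 was. Of 17 heat shock and chaperone genes 5 were called higher and 0 lower (median 0.28). Each fit that left out 1 library called fewer, 3 without Tat-Cocaine replicate 1, Tat-Cocaine replicate 2 or Tat-Cocaine-4OI replicate 3 and 4 without any of the rest. The small heat shock protein Hspb8 rose from 87.5 ± 9.27 to 164 ± 7.91 CPM and its partner Bag3 from 35.7 ± 6.70 to 69.6 ± 3.25 CPM (SD, n = 3), with log2 fold changes of 0.90 (SE 0.107) and 0.97 (SE 0.138). Of 17 glycolysis genes 1 was called, the glucose transporter Slc2a1, with 138, 153 and 148 CPM against 283, 396 and 312 CPM (1.16, SE 0.158, adjusted p = 0.000442). Of 33 proteasome genes 2 were called higher, led by the assembly chaperone Psmd5 (0.74, SE 0.0860, adjusted p = 9.53e-05), with a list median of 0.03. Of 21 ATF4 targets 1 was called, Slc3a2, the partner of Slc7a11 in xCT (0.75, SE 0.194, adjusted p = 0.0414). The ATF4 list held 1 call without Tat-Cocaine replicate 1 or Tat-Cocaine-4OI replicate 2, and 0 without any 1 of the other libraries. Limma called 0 of 25 cell cycle genes (median 0.21, 0 with an unadjusted p under 0.05). Limma called 0 of 12 fatty acid and LXR genes (median 0.02, 3 with an unadjusted p under 0.05) and 0 of 4 AhR targets (median -0.38, 0 unadjusted). Among the matrix genes 1 of 34 collagens was called higher, Col4a5, and 1 lower, Col9a3 (median -0.08), and of 17 matrix metalloproteinases and inhibitors Mmp15 was higher and Mmp2 lower (median 0.05). Of 10 S100 genes S100b alone was called. Of 85 oxidative phosphorylation genes 1 was called, Mt-nd4 (median -0.06), and 0 to 3 with 1 library left out. Of 20 itaconate and TCA cycle genes 3 were called higher, Suclg1, Suclg2 and Clybl (median 0.06). The count of this list ran from 0 to 4 with 1 library left out. Clybl takes part in the breakdown of itaconate, and none of the 3 was called in every fit that left out 1 library.

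Acod1 itself, the source of itaconate in the cell, stood at 1.66, 10.8 and 28.99 CPM in Tat-Cocaine and at 1.26, 6.59 and 2.43 CPM in Tat-Cocaine-4OI cultures (log2 fold change -1.43, SE 0.852, adjusted p = 0.413). The groups overlapped and no difference was detected at this spread. Control cultures held 0.369 ± 0.224 CPM of Acod1 (SD, n = 3). Of the 22 genes tested that the study named, Nqo1, Gstp1, Gclc and Gfap were called higher and 0 lower. Most of the 22 went down, with 16 log2 fold changes below 0 and 6 above (median -0.68). Without Tat-Cocaine-4OI replicate 2 limma called 1 of the 22 lower. The study chose part of these 22 genes on these samples, so their counts are not independent evidence. By limma 0 of 21 phosphodiesterase genes were called (median -0.16, 0.12 without Tat-Cocaine-4OI replicate 2; 4 with an unadjusted p under 0.05). Pde4b, which breaks down cyclic AMP, stood at 60.3, 96.3 and 84.7 CPM against 43.9, 41.95 and 38.7 CPM (-0.92, SE 0.261, adjusted p = 0.0619), with groups that did not overlap. P2ry2 went from 9.73 ± 3.35 to 4.17 ± 1.98 CPM (-1.17, SE 0.332, adjusted p = 0.0627).

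Whether 4OI acted differently with Tat and cocaine than without was tested as the difference of both effects, between groups that share no library. By limma 2 of 15609 genes (0.0128%) differed from the effect of 4OI alone against Control, and 1068 had an unadjusted p under 0.05. In both genes the effect of 4OI was the more negative in Tat-Cocaine cultures. In LOC691143 Control cultures held 12.5 ± 0.952 CPM and cultures with 4OI alone 14.1 ± 0.169 CPM (SD, n = 3), against 52.4, 72.3 and 130.1 CPM in Tat-Cocaine and 17.4, 20.1 and 17.3 CPM in Tat-Cocaine-4OI cultures. The difference of the effects was -2.26 (SE 0.290, adjusted p = 0.00459). Retn stood at 2.75, 7.12 and 4.75 CPM in Tat-Cocaine and at 0.117, 0.117 and 0.0991 CPM in Tat-Cocaine-4OI cultures, and at 0 reads in the Control and 4OI libraries. A count of 0 allows up to 3 reads, 0.110 to 0.175 CPM in the 21 libraries (counting error only). Its difference of -3.05 (SE 0.374, adjusted p = 0.00459) is therefore its fall in Tat-Cocaine cultures, and a fall under 4OI alone could not have been seen. Both genes were called in 9 of 11 alternatives, and not with voom weights or with only the 12 libraries compared in the fit.

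Nqo1, Slc7a11 and Gclm were also higher under 4OI alone than in Control cultures, with limma adjusted p-values of 1.56e-07, 1.37e-05 and 1.60e-06. Over the lists, the median log2 fold change of 4OI alone was 0.91 for the quinone genes, 0.49 for the glutathione genes, 0.41 for the heme and iron genes, 0.19 for the Nrf2 regulators, 0.13 for the glutathione S-transferases and 0.09 for the dismutases, catalase and peroxidases. It was -1.53 for interferon-stimulated, -0.64 for MHC class I, -0.75 for border macrophage and -0.10 for MHC class II genes. In Tat-Cocaine cultures these 4 medians were -1.42, -0.59, -2.15 and -2.26. RT1-Da held only 0.230, 0.441 and 0.227 CPM in Control cultures, so a fall of this gene under 4OI alone could hardly be seen. Nqo1 went from 103 ± 14.9 CPM in Control to 550.3 ± 66.8 CPM under 4OI alone (SD, n = 3), and the difference between its effects was -0.53 (SE 0.223, adjusted p = 0.643). Slc7a11 reached 971 ± 480.1 CPM with 4OI alone and 364 ± 56.2 CPM in Tat-Cocaine-4OI cultures (difference -1.35, SE 0.531, adjusted p = 0.625). Gclm reached 308 ± 126 and 113 ± 20.3 CPM (difference -1.12, SE 0.321, adjusted p = 0.437). The last 2 were lower in Tat-Cocaine-4OI than in 4OI cultures, but the tests of the difference do not pass, nor do they show equal effects. Against the effect of 4OI in Tat cultures without cocaine limma called 0 genes (0.0%), with 1380 at an unadjusted p under 0.05 and 0 called under each alternative run. Nqo1 was at 416 ± 7.85 CPM, Hmox1 at 1412 ± 429 CPM and RT1-Da at 2.67 ± 0.584 CPM in Tat-4OI cultures (SD, n = 3).

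**Figure D4:**
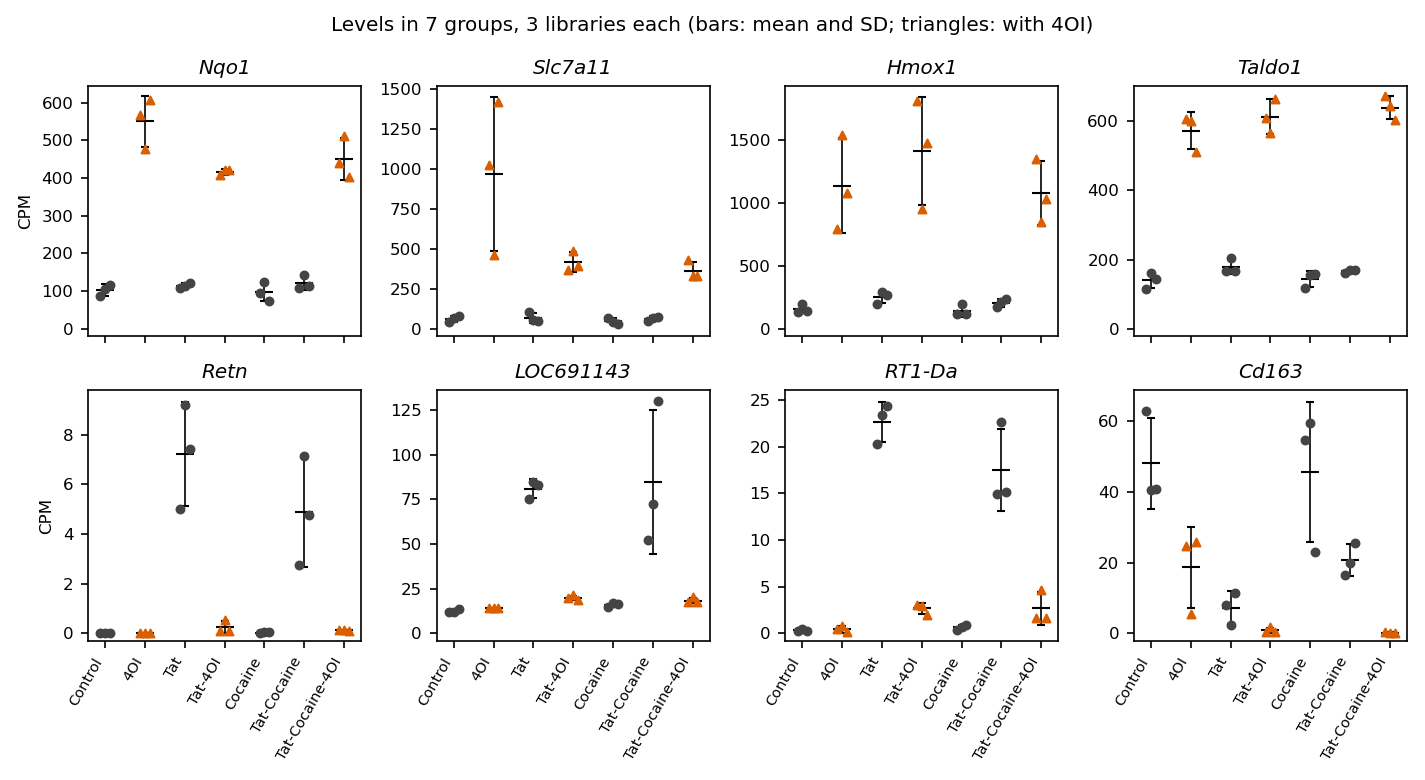
CPM of 8 genes in the 3 libraries of each of 7 groups (circles without 4OI, triangles with 4OI), with mean and SD as bars. Nqo1, Slc7a11, Hmox1 and Taldo1 are high in the 3 groups with 4OI, with or without Tat, while Retn, LOC691143 and RT1-Da are highest in Tat and Tat-Cocaine cultures and Cd163 is lowest in Tat-Cocaine-4OI cultures (0.114 ± 0.104 CPM; SD, n = 3). Cd163 is next lowest in Tat-4OI cultures, at 0.428, 1.67 and 0.487 CPM.

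A further comparison set the same Tat-Cocaine-4OI libraries against Tat-Cocaine cultures given another compound, so that it shares those 3 libraries with the comparisons above. It was fitted over all 48 libraries, not 21, with another estimate of spread. In that fit Tat-Cocaine-4OI against Tat-Cocaine gave 1170 genes by limma. Against the mean of cultures with Amlexanox (25 µM), Tazemetostat (3 µM) or Senicapoc (1 µM), 3160 of 15890 genes (19.9%) were called by limma, 1235 higher and 1925 lower with 4OI. The count was 1489 without Tat-Cocaine-4OI replicate 1 and 1901 without replicate 3. The doses differ, and the values show only where 4OI cultures stood. Nqo1, Gclm, Tnfsf10, Lyve1 and Cd163 were named for large changes in the same 3 Tat-Cocaine-4OI libraries. Their p-values below are therefore not independent evidence. Nqo1 ranged from 65.3 to 122 CPM (median 97.4 CPM) over the 9 libraries of the other compounds, against 402 to 512 CPM with 4OI (log2 difference 2.20, SE 0.146, adjusted p = 1.78e-13). Gclm ranged from 27.1 to 31.8 CPM (log2 difference 1.93, SE 0.135, adjusted p = 6.02e-13). Tnfsf10 ranged from 5.07 to 9.04 CPM against 0.187 to 0.875 CPM with 4OI (-3.13, SE 0.206, adjusted p = 1.51e-13), and Lyve1 from 52.2 to 205 CPM against 2.85 to 14.2 CPM (-4.16, SE 0.359, adjusted p = 1.60e-10). Cd163 was the least uniform, from 0.510 to 31.1 CPM over the 9 libraries (-3.79, SE 0.509, adjusted p = 1.42e-06). Acod1 stood between 5.74 and 113 CPM in these libraries (median 21.9 CPM) and was lower with 4OI (-2.64, SE 0.674, adjusted p = 0.00440). In the comparison with Tat-Cocaine alone, fitted over 21 libraries, it was not called.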

How the data were processed

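RNA-seq of 48 libraries in 16 groups of 3 was deposited as 1 table of 30211 genes, 6162 of them at 0 in all libraries. The authors trimmed reads with Trim Galore 0.4.5, aligned them with STAR 2.7.2, counted with featureCounts (Subread 1.5.3) and deposited CPM values after TMM scaling, recorded here as a signal because the scaling shifts them from a plain CPM. The labels name the builds mRatBN7.2 and hg38 and the methods Rnor_6.0, so no coordinate of the table was used. The deposited table also holds 16 columns of group means and 180 columns of 36 comparisons (fold changes, test statistics and p-values), which were not used. In the 6 libraries compared, the smallest steps of the values gave 17.6 to 25.0 M reads on genes, and 0.5 CPM stood for 8.58 to 12.4 reads. Only 85.6% to 86.2% of low values were whole reads within 0.02 read, so no count model was run.

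Log2(CPM + 0.5) was fitted with limma 3.58.1 (R 4.3.3, trend) over the 21 libraries of 7 groups, which share 1 estimate of spread, keeping genes that reached 0.5 CPM in 3 or more of them. The comparison with the other compounds was fitted in the same way over all 48 libraries of 16 groups. Calls are at a Benjamini-Hochberg adjusted p under 0.05, two-sided. The steps were tested on simulated data. An exact permutation test of 3 against 3 libraries cannot go below p = 0.1. Nothing says whether replicates came from separate preparations, so the p-values measure the spread between these samples, which may be technical. Floors of 3 reads cover counting error only. Named genes are the 12 largest rises and falls called in all 6 fits that left out 1 library, with groups that do not overlap and at least 1 CPM in the higher group, up to 4 such members of each gene list (else up to 2 of the highest level), genes the study named and genes whose effect differed between groups. Other called members of lists, and Csf1r, Cd74, Mx1 and Irf7, were named after their values were seen. The members and lists were chosen with earlier results of these data known. Alternatives were other pseudocounts, filters, scalings, weights, libraries in the fit, the replicate block and leaving out each library. Some genes that the rule names are not reported here. Promoter windows are from RefSeq (GRCr8), matched by symbol for 11104 of 15609 genes. Python 3.11.15, numpy 2.4.6, pandas 2.3.3 and matplotlib 3.10.9 were used.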

Additional observations from a re-analysis of the deposited data

Results flagged for a closer look

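The effect of 4OI in Tat-Cocaine cultures and in Control cultures differed in 2 genes by limma's test of the difference itself. LOC691143 had a difference of -2.26 on the log2 scale (SE 0.290, adjusted p = 0.00459), with 84.9 ± 40.3 CPM in Tat-Cocaine, 18.3 ± 1.58 CPM in Tat-Cocaine-4OI, 12.5 ± 0.952 CPM in Control cultures and 14.1 ± 0.169 CPM under 4OI alone (SD, n = 3), and it lay between -2.55 and -1.90 over the alternatives. Retn had a difference of -3.05 (SE 0.374, adjusted p = 0.00459), between -4.46 and -2.33 over the alternatives, and was at 0 in the Control and 4OI libraries, so that the difference depends on the pseudocount. Both were called in 12 of 12 fits that left out 1 library.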

How the results depend on the processing

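The count of 559 genes changed by 4OI was 223 with a minimum log2 fold change of 1, 1170 with all 48 libraries in the fit, 113 with only the 6 compared, and between 476 and 588 under the other pseudocounts, filters, scalings and weights. Leaving out 1 library gave 227 to 528 genes, 318 and 288 when replicate 1 or 2 of Tat-Cocaine was dropped, 227 when replicate 3 of Tat-Cocaine-4OI was. The 2 genes that differed from the effect of 4OI alone became 18 with all 48 libraries, 5 without trend, 4 with a pseudocount of 1 CPM, 0 with voom weights and 0 with only the compared groups, and 2 to 11 without 1 library (8 when 4OI replicate 2 was dropped, 11 and 4 for replicates 1 and 2 of Tat-Cocaine, 4 for replicate 2 of Tat-Cocaine-4OI). The difference from the effect in Tat cultures gave 0 genes throughout. Against the other compounds, 3160 genes became 753 with a minimum log2 fold change of 1 and 1489 to 3917 without 1 library, with 1489 and 1901 without Tat-Cocaine-4OI replicate 1 and 3. With the replicate block these counts were 1051, 7, 0 and 3848. Same-numbered libraries deviated together at correlations of 0.58, -0.20 and -0.16, so the numbers are not taken as pairs. Fewer libraries in a fit leave less information on the spread; the cause of the other shifts was not tested. With 1 library left out, list medians near 0 changed sign for genes of disease-associated microglia (-0.25 to 0.18), oligodendrocyte precursors (-0.05 to 0.41), endothelial cells (-0.23 to 0.13), collagens (-0.20 to 0.05), matrix metalloproteinases (-0.05 to 0.13), ATF4 targets (-0.12 to 0.12) and fatty acid genes (-0.09 to 0.22), and the calls of Tagln, P2rx6, Fosl1, RT1-N3, Mmp2 and Mt-nd4 were lost in at least 1 such fit. No named gene changed direction when called. With 3 libraries a group and a spread as wide as that of Il1b or the interferon genes, large differences can miss the threshold, and genes near 0.5 CPM rest on 8.58 to 12.4 reads.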
